A study of Mus musculus with 4 samples.

Results

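The genes described here are 10 immediate early genes, Fos, Fosb, Jun, Junb, Jund, Egr1, Arc, Nr4a1, Nr4a2 and Nr4a3, measured in laser-captured Purkinje cells of the mouse cerebellum. They were taken by symbol: every probe set whose platform annotation names exactly 1 of them was used, which gave 19 of 45037 probe sets, and 10 of the 18193 genes named on the array. All samples came from 8-week-old male C57BL/6J mice, described in the labels as intact, with no stimulus or drug named. There were 4 samples in 1 group, 2 from animal 1 (1-1 and 1-2) and 2 from animal 2 (2-1 and 2-2), and nothing states that samples of 1 animal were cut separately. Tests between the animals therefore measure the spread between these samples, which may be technical, and 4 arrays limit the precision of every value.

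Immediate early genes are transcribed within minutes of a stimulus from transcription factors that are already present, such as CREB and the serum response factor, and need no new protein for it. Most of them encode transcription factors themselves, so that a brief calcium or cAMP signal is turned into a longer change of gene expression. FOS and JUN proteins dimerize as AP-1, EGR1 is a zinc finger factor, the NR4A proteins are orphan nuclear receptors, and Arc acts at the synapse, where it promotes the removal of AMPA receptors. In neurons their transcripts are short-lived and are widely read as a sign of recent activity.

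The cAMP response element, bound by CREB, is the best known entry point of calcium and cAMP signals into these promoters. Promoter sequences from RefSeq (GRCm38.p6) were matched for 8 of the 10 genes, all but Arc and Egr1, and the 250 bases before the annotated start are considered here. The 4 windows below are shown because they lie outside the annotated gene and contrast genes with and without the core of this element, and with and without a signal above background. Each reads from 5′ to 3′ on the strand of the gene, and capitals mark the core TGACG, or its reverse complement.
Fos (chr12:85473640-85473889, plus strand): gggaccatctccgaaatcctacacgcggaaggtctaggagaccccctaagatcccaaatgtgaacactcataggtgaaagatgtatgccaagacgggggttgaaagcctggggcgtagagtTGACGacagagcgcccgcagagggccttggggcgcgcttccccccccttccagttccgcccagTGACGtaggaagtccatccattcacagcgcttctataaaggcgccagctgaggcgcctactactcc
Jund (chr8:70697489-70697738, plus strand): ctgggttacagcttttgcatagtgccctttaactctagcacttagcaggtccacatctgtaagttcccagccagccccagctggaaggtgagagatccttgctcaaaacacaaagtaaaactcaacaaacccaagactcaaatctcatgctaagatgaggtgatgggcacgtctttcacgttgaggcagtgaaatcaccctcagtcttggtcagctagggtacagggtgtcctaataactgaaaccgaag
Junb (chr8:84978749-84978998, minus strand): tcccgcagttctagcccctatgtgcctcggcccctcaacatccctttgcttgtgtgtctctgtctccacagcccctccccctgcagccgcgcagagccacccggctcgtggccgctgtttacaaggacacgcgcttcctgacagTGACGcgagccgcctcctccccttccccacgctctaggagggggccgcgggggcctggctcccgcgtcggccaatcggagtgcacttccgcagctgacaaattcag
Nr4a2 (chr2:57124004-57124253, minus strand): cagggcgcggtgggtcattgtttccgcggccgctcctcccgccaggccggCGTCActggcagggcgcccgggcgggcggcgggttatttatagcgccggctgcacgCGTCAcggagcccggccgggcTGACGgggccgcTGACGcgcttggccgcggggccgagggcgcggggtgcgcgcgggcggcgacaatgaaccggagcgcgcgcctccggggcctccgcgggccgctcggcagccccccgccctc

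The core TGACG occurred on either strand in 6 of the 8 promoter windows, against 17.8% of 32851 windows of the same length over all genes. Fos held 2 cores, of which the nearer lay from -66 to -62 relative to the start site. Fosb held 1 at -60 to -56 and Junb 1 at -106 to -102. Nr4a1, Nr4a2 and Nr4a3 held 4 each, while 0.688% of all windows held 3 or more. Jun and Jund held none in this window. The G and C share of these windows ran from 58.4% in Fos to 80% in Nr4a2, above the median of 52.4% over all windows, except in Jund, where it was 47.6%. Among the 10574 windows with at least the G and C share of Fos (58.4%), 26.7% held a core and 1.52% held 3 or more. For Nr4a1 all 250 bases, for Nr4a3 227 and for Fosb 73 lay inside the annotated span of the gene, and these 3 windows are not printed.

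**Figure D1:**
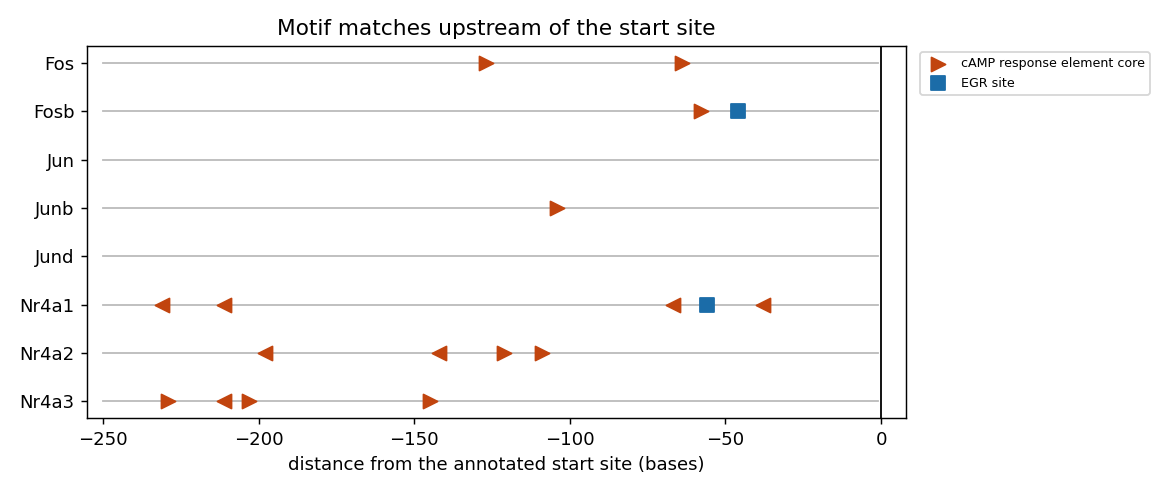
Positions of motif matches in the 250 bases before the annotated start site of 8 genes, with distance in bases on the horizontal axis. Triangles are cores of the cAMP response element, pointing right for the gene's own strand, and squares are EGR sites. Nr4a1, Nr4a2 and Nr4a3 hold 4 cores each, and Jun and Jund hold none.

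Other motifs were searched on both strands of the same windows. The full palindrome TGACGTCA, which contains the core on each strand, was in 0 of 8 windows and in 1.55% of all. The CArG box of the serum response element was in 0 of 8 and in 1.47% of all, and the AP-1 site TGANTCA in 0 of 8 and in 6.75% of all. The NR4A monomer site AAAGGTCA was in 0 of 8 and in 1.34% of all. An EGR site (GCGGGGGCG or GCGTGGGCG) was in 2 of 8, Fosb at -50 to -42 and Nr4a1 at -60 to -52, and in 3.06% of all windows. The G and C share was 68.8% in the Fosb window and 74.4% in that of Nr4a1, above the median of 52.4%. The share of windows of like G and C content that hold this site was not computed. A match describes letters in these windows only, and elements farther upstream were not searched.

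The arrays give an intensity per probe set on a linear scale, called signal here. Level means log2 of the signal after quantile normalization, given as mean ± SD over the 2 animals. Probe sets differ in how strongly they respond to a given quantity of RNA, and levels of different genes do not rank their amounts. Where a list is long, the genes with its 4 brightest probe sets are named, as a rule of choice only. A background bound was set on each array at the 95th percentile of 81 genes known from organs outside the brain. It corresponded to a deposited signal of 60.8 to 85.9. The capture was checked against 15 measured Purkinje cell markers, of which 14 lay above the bound on all 4 arrays. Among them were Calb1 (signals of 10987 to 16041) and Pcp2 (5278 to 11741). Pcp2 was the 1 called Purkinje marker, higher in animal 2 by 0.57 ± 0.07 (SE, adjusted p = 0.0389, limma, 2 samples per animal). Markers of other cells were counted in the same way, beside 25.6% of all named genes by their brightest probe set. Above the bound on all 4 arrays were 13 of 18 genes of Bergmann glia and astrocytes (72.2%) and 8 of 19 of granule cells (42.1%). The counts were 4 of 14 for oligodendrocytes (28.6%) and 3 of 12 for interneurons (25%), both near the share of all genes. For vessels they were 2 of 15 (13.3%) and for microglia 1 of 13 (7.69%), both below it. In such captures a change in the cells collected and a change in RNA per cell cannot be told apart.

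Of the 10 immediate early genes, 3 gave a probe set above the bound on all 4 arrays: Fos, Jund and Nr4a3. Over all named genes 25.6% did so by their brightest probe set. Counted by probe sets, 3 of 19 lay above it on all 4 arrays, against 15.6% of all probe sets. Another 2 genes, Jun and Nr4a2, passed on 1 and 2 arrays, and Fosb, Junb, Egr1, Arc and Nr4a1 on none. With the bound at the 99th percentile of the same background genes, Nr4a3 passed on 3 arrays and only Fos and Jund of these 10 genes passed on all 4. With it at the 90th percentile the same 3 genes passed on all 4, and Egr1 and Nr4a1 each passed on 1 array. Jun (1448694_at) and Nr4a2 (1455034_at) then each passed on 3 arrays, and a further Nr4a2 probe set (1447863_s_at) on 1. A transcript that lies below the bound can still be present, since the bound marks only what these arrays separate from background.

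**Figure D2:**
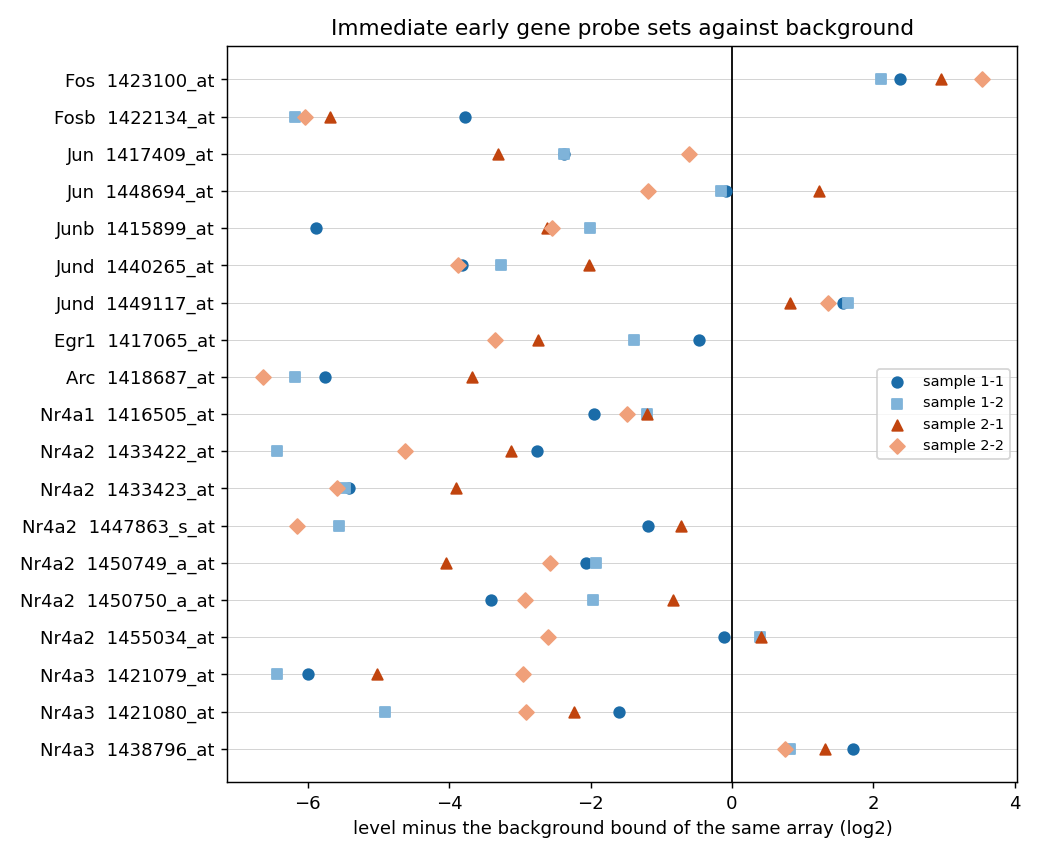
Level of each of the 19 probe sets minus the background bound of the same array, in log2 units on the horizontal axis, with 1 marker per sample. Only the probe sets of Fos, Jund (1449117_at) and Nr4a3 (1438796_at) have all 4 samples to the right of the line at 0.

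Fos, the subunit whose short-lived mRNA is the classical marker of neuronal activity, was above background in every sample. Its only probe set (1423100_at) gave deposited signals of 320.3 and 279.9 in samples 1-1 and 1-2, and of 497.5 and 956.0 in samples 2-1 and 2-2. Both samples of animal 2 were higher than both of animal 1, and sample 2-2 stood highest. The level was 8.84 ± 0.49 (SD, n = 2 animals), between 2.11 and 3.52 above the bound of the same array. Fosb, the paralog whose truncated splice form accumulates under chronic stimulation, stayed near the lower end of the scale on its only probe set (1422134_at). Its signals were 4.9, 1.0, 1.2 and 1.2 in samples 1-1, 1-2, 2-1 and 2-2. Its levels minus the bound ran from -6.18 to -3.78.

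Jun, the AP-1 subunit activated by JNK phosphorylation, was read by 2 probe sets that did not follow the same samples. Probe set 1448694_at gave 57.2, 57.5, 158.5 and 36.2 in samples 1-1, 1-2, 2-1 and 2-2, and passed the bound only in sample 2-1. Probe set 1417409_at gave 13.0, 13.5, 6.0 and 55.6 and passed on no array. Sample 2-1 was thus the highest on the first and the lowest on the other, and sample 2-2 the reverse. Animal 1 gave nearly equal values in its samples on each probe set.

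Junb, a Jun paralog that often opposes Jun in transactivation, gave 1.1, 17.2, 9.9 and 13.2 on its only probe set (1415899_at). Its levels minus the bound ran from -5.88 to -2.01. Jund is the member of the family that many tissues express without a stimulus, and its probe set 1449117_at gave 181.8, 199.4, 117.4 and 218.4. Sample 2-1 was lowest, and the level was 7.44 ± 0.57 (SD, n = 2 animals), from 0.82 to 1.64 above the bound. The other Jund probe set, 1440265_at, gave 4.8, 7.3, 14.7 and 5.1 and stayed below the bound (-3.88 to -2.02). Sample 2-1 was its highest, whereas it was the lowest on 1449117_at.

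Egr1, a zinc finger factor induced by synaptic activity through the MAP kinase pathway, gave 44.5 and 25.8 in animal 1 and 9.1 and 7.4 in animal 2 (1417065_at). The animals did not overlap, with animal 1 higher, but every sample lay below the bound, from -3.36 to -0.46 relative to it. Of the 9779 probe sets above the bound on 2 or more arrays, 26.0% did not overlap in this direction. The Egr1 probe set was not among the 9779. Neither animal was above background, so the size of the difference is not given. Arc, the synaptic effector of the group, gave 1.2, 1.0, 4.5 and 0.8 on its only probe set (1418687_at), from -6.64 to -3.68 relative to the bound.

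Nr4a1 (Nur77) had 1 probe set, 1416505_at, with signals of 17.3, 28.8, 26.2 and 28.9. Its levels spanned 0.80, the narrowest range of the 19 probe sets, and lay from -1.95 to -1.20 relative to the bound. Nr4a2 (Nurr1), also known for its role in dopamine neurons, had 6 probe sets, and 1455034_at, the 1 that passed on any array, gave 56.3, 83.2, 87.6 and 12.6. It passed the bound in samples 1-2 and 2-1, while sample 2-2 lay at -2.61 relative to it. Its probe set 1447863_s_at alternated within each animal, with 27.7 and 1.6 in animal 1 and 38.3 and 1.1 in animal 2. Its other 4 probe sets, with signals from 0.8 to 35.2, passed on no array, and 1 of them, 1450749_a_at, did not overlap between the animals (16 and 18.2 in animal 1, 3.4 and 12.8 in animal 2). The share given for Egr1, 26.0%, is for the same direction, and 1450749_a_at was likewise not among the probe sets it covers.

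Nr4a3 (NOR1) had 3 probe sets. On 1438796_at its signals were 200.7, 112.0, 166.6 and 144.9, and the animals overlapped. The level was 7.25 ± 0.38 (SD, n = 2 animals), from 0.75 to 1.71 above the bound. Probe sets 1421079_at and 1421080_at of the same gene gave at most 9.8 and 21.6 and passed on no array, and the former did not overlap between the animals (1.0 and 0.8, then 1.8 and 9.8). Of the 9779 probe sets above the bound on 2 or more arrays, 24.9% did not overlap, with animal 2 higher. Probe set 1421079_at was not among the 9779 and lay from -6.44 to -2.97 relative to the bound. The call of Nr4a3 as above background therefore belongs to 1 of its 3 probe sets, as that of Jund belongs to 1 of 2.

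**Figure D3:**
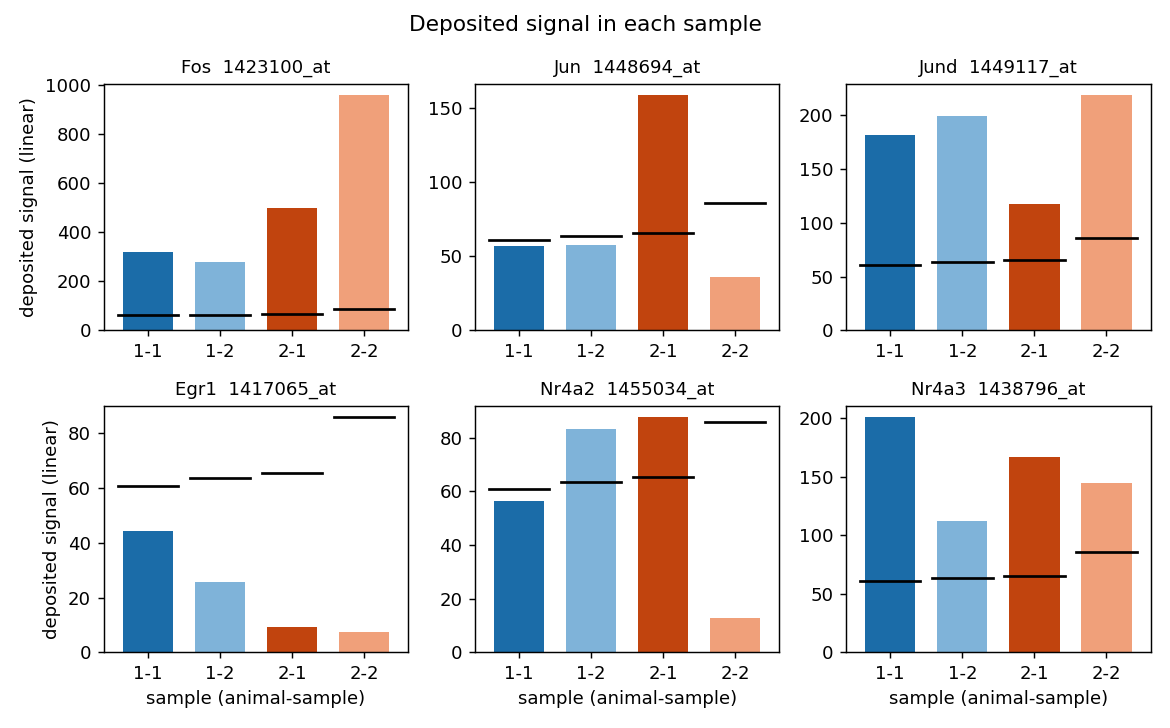
Deposited signal on a linear axis in each of the 4 samples for the 5 probe sets that passed the bound on at least 1 array and for Egr1. Bars are single samples, and black lines are the lowest deposited signal above the bound on that array. Fos stands above its line in all 4 samples, Egr1 in none.

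The labels imply 1 further comparison, that of the animals. Of the 19 probe sets, 4 lay above the bound on at least 2 arrays and entered the fit, those of Fos, Jund (1449117_at), Nr4a3 (1438796_at) and Nr4a2 (1455034_at). None of the 4 was called by limma at an adjusted p under 0.05, and 0 of the 4 had an unadjusted p under 0.05. Over all 9779 probe sets tested 0.450% were called, 26 of them higher and 18 lower in animal 2, and 1867 had an unadjusted p under 0.05.

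The level of Fos in animal 2 exceeded that in animal 1 by 0.69 ± 0.29 log2 units (SE, 95% interval from -0.01 to 1.40, adjusted p = 0.268, limma, 2 samples per animal). That is a ratio of 1.62, and it was 2.42 between the means of the deposited signals. The median difference over all tested probe sets was -0.05 after quantile normalization and 0.48 on the values as deposited. Fos differed by 1.20 on the deposited scale and by 0.70 when the arrays were scaled to equal trimmed means, and its animals did not overlap on the normalized or the deposited scale. Non-overlapping levels with animal 2 higher were found in 24.9% of the tested probe sets. Without sample 2-1 Fos was called (1.03 ± 0.24, adjusted p = 0.0455), in a fit that called 779 probe sets in all. Without sample 2-2 its difference was 0.36 ± 0.26 (adjusted p = 0.382). Over the 10 alternatives its adjusted p ran from 0.0455 to 0.801, and its difference was positive in each.

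Jund on 1449117_at differed by -0.81 ± 0.36 (SE, 95% interval from -1.67 to 0.04, adjusted p = 0.280, limma, 2 samples per animal). Its levels did not overlap after quantile normalization, with animal 2 lower, as in 26.0% of the tested probe sets, but the deposited signals did overlap. The difference was negative in all 10 alternatives and came to -0.25 on the deposited scale. It was -0.51 without sample 2-1 and -1.13 without sample 2-2. Nr4a3 differed by -0.53 ± 0.42 (SE, adjusted p = 0.538) and by 0.05 on the deposited scale. It was -0.12 without sample 1-1, -0.95 without sample 1-2 and -0.30 without sample 2-2. Nr4a2 differed by -1.54 ± 1.03 (SE, adjusted p = 0.463), and the value was -0.08 without sample 2-2. Fos and Jund, both AP-1 subunits, thus had differences of opposite sign, neither of which passed the test.

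**Figure D4:**
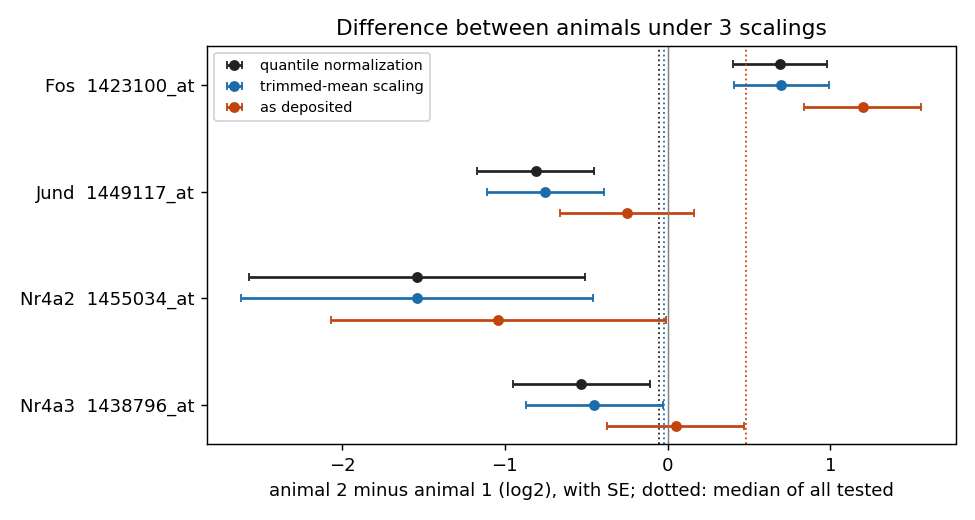
Difference of animal 2 from animal 1 in log2 units for the 4 tested probe sets, with SE, under 3 scalings of the arrays. Dotted lines are the median over all tested probe sets under the same scaling. Fos lies to the right of 0 and Jund to the left under each scaling, while Nr4a3 moves from -0.53 to 0.05.

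Several measures of the arrays differed between the same samples. The hybridization controls, which are spiked into the labelled material, gave signals in animal 2 that were 1.65 to 2.04 times those in animal 1 (9 probe sets, median 1.91). The 3′ to 5′ signal ratio of the Gapdh control, which rises as cDNA becomes shorter, was 11.4, 9.09, 6.26 and 8.45 in samples 1-1, 1-2, 2-1 and 2-2, and that of the actin control was 35.3, 28.1, 9.86 and 24.6. Sample 2-1, which gave the highest signal of Jun on 1448694_at and the lowest of Jund on 1449117_at, had the lowest of both ratios. On the other probe set of each gene the order was reversed, with sample 2-1 lowest for Jun (1417409_at) and highest for Jund (1440265_at).

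Granule cell markers also moved with the animals. All 11 tested genes of that list of 19 had lower levels in animal 2, with a median difference of -1.24, and 1 was called, Zic1 (-1.29 ± 0.18, SE, adjusted p = 0.0490, limma, 2 samples per animal). Their summed deposited signal was 5282 and 6054 in animal 1 and 3118 and 4786 in animal 2. Gabra6, a defining receptor subunit of granule cells, gave 708.2, 963.9, 551.4 and 442.1, and the transporter gene Slc17a7 was below the bound on all 4 arrays, at 1.0 to 9.0. On the same normalized scale the differences of the tested members were -1.54 for Nr4a2, -0.81 for Jund, -0.53 for Nr4a3 and 0.69 for Fos, none of them called. Genes of Bergmann glia and astrocytes had a median difference of -0.09 and summed deposited signals of 14796 to 18053, but single genes went both ways. Of 14 tested, 5 were higher and 9 lower in animal 2. None was called by limma, and 4 had an unadjusted p under 0.05, beside 1867 of all 9779 tested probe sets. The defining marker Gja1 differed by -0.57 ± 0.09 (SE, adjusted p = 0.0631, limma) and Slc1a3 by -0.18 ± 0.15 (adjusted p = 0.558). The part of granule cells and of RNA length in the values of the immediate early genes was not tested.

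The other genes of the pathway were described by lists. Of 48 other immediate early genes, 8 (16.7%) passed the bound on all 4 arrays, and 31 passed on none. Among those 31 were the EGR and FOS relatives Egr2, Egr3, Egr4, Fosl1 and Fosl2. Over all named genes 25.6% passed on all 4. Named by that rule were Mcl1, a survival factor of the BCL2 family (9.72 ± 0.21, SD, n = 2 animals), the G protein regulator Rgs2 (9.49 ± 0.15), the secretory granule protein gene Scg2 (8.81 ± 0.30) and Ier3 (8.76 ± 0.20). Of 13 tested, 0 were called by limma in either direction, and 1 had an unadjusted p under 0.05, the neurite growth gene Nrn1 (-1.27 ± 0.38, SE, adjusted p = 0.161). The median difference of these 13 was -0.22, and it was 0.26 on the deposited scale and -0.10 without sample 1-1 or without sample 2-2.

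Genes that act before the immediate early genes formed another list. Of 26 measured upstream regulators, which include CREB, SRF and MEF2 factors and their kinases, 17 (65.4%) lay above the bound on all 4 arrays, beside the 25.6% of all named genes. Creb1, Mef2a, Mef2c and Mef2d were among the 17, but Srf passed on only 1 array. The 6 that passed on none were Elk1, Elk3, Elk4, Crtc2, Crtc3 and Mrtfa. The genes named by the same rule were Prkaca, the catalytic subunit of protein kinase A (10.86 ± 0.05, SD, n = 2 animals), the MAP kinase kinase Map2k1 (9.91 ± 0.33), the protein kinase A regulatory subunit Prkar1a (9.50 ± 0.63) and Mef2c (9.44 ± 0.13). The median difference of 18 tested genes was -0.07, and it was 0.44 on the deposited scale and 0.20 without sample 2-2. Over all 9779 tested probe sets, 1867 had an unadjusted p under 0.05 by limma. None of the 18 was called by limma, and 4 had an unadjusted p under 0.05. These were Prkar1a (0.89 ± 0.23, SE), Prkar2b (0.82 ± 0.30), Mef2a (0.81 ± 0.24) and the kinase Rps6ka3 (-0.93 ± 0.26). Their adjusted p ran from 0.136 to 0.216.

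Partners and modifiers of the members, such as AP-1 dimer partners, JNK kinases and corepressors of EGR1, lay above the bound on all 4 arrays in 14 of 25 cases (56%). The share of all named genes was 25.6%. By that rule the named genes were Mapk10, the neuronal JNK isoform (12.11 ± 0.17, SD, n = 2 animals), the dimer partners Atf4 (11.15 ± 0.20) and Atf2 (9.38 ± 0.17), and Fbxw7, a ubiquitin ligase subunit that recognizes JUN (9.65 ± 0.12). The median difference of 16 tested genes was 0.18, and it was 0.68 on the deposited scale, 0.03 without sample 1-1, 0.39 without sample 2-2 and 0.91 with the median over the probe sets of a gene. The count over all 9779 tested probe sets with an unadjusted p under 0.05 by limma was 1867. None of the 16 was called by limma, and 4 had an unadjusted p under 0.05. These were another JNK gene, Mapk8 (1.52 ± 0.36, SE), the kinase gene Camk2b (1.24 ± 0.31), Mapk10 (-0.24 ± 0.08) and the AP-1 partner Maf (-1.94 ± 0.46), with adjusted p from 0.115 to 0.178. Mapk10 had the opposite order before normalization, with deposited signals of 4182 and 4068 in animal 1 and 4461 and 4803 in animal 2. Mapk8 gave deposited signals of 77.6 and 78.6 in animal 1 and 364.2 and 299.1 in animal 2. Its levels did not overlap either, with animal 2 higher, as in 24.9% of the tested probe sets.

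Heat shock genes, some of which also respond quickly to handling of tissue, lay above the bound on all 4 arrays in 9 of 12 cases (75%). As before, 25.6% of all named genes did so. Bag3 and Hmox1 passed on no array. Hspa8 (13.49 ± 0.02, SD, n = 2 animals), Hsp90aa1 (12.46 ± 0.02), Dnaja1 (11.30 ± 0.04) and Hsph1 (11.18 ± 0.12) were named by the same rule, and their differences between the animals ran from -0.17 to 0.03. None of 10 tested was called by limma, and 1 had an unadjusted p under 0.05, the stress-inducible Hspa1b, which has a near-identical copy and is uncertain for that reason (-1.68 ± 0.32, SE, adjusted p = 0.0820). Hspa1b gave 318.3 and 249.9 in animal 1 and 109.0 and 154.5 in animal 2. Hspa1a, also on this list, differed by -0.35 ± 0.63 (SE, adjusted p = 0.797, limma), and its animals overlapped. The part of tissue handling in these values was not tested.

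**Figure D5:**
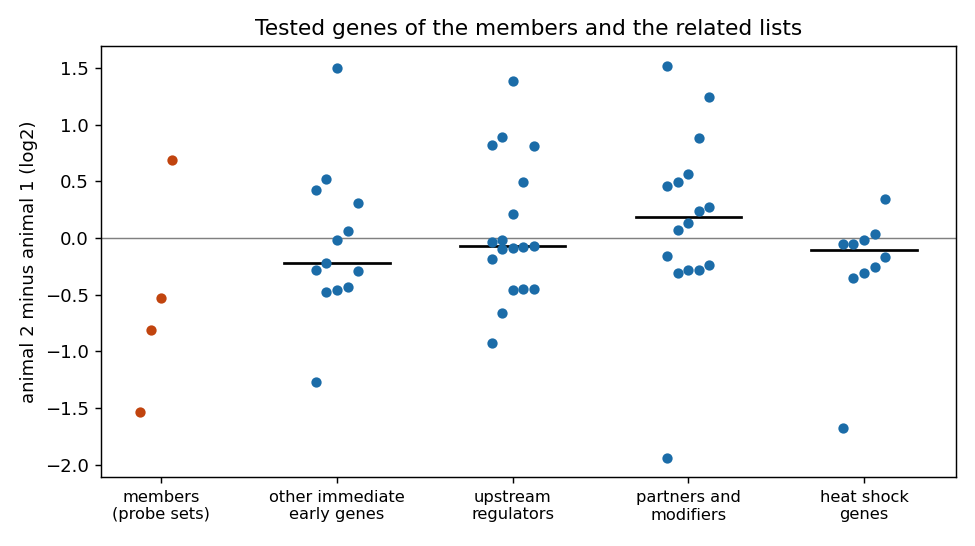
Difference of animal 2 from animal 1 in log2 units, after quantile normalization, for the 4 tested probe sets of the members and for the tested genes of the 4 related lists, by their brightest probe set. Points are genes, none of them called, and bars are list medians, from -0.22 to 0.18 on this scale and from 0.26 to 0.68 on the deposited scale.

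The 3 probe sets that passed on every array also served to compare samples. Samples 1-1 and 1-2 differed by a median of 0.22 over these 3, and samples 2-1 and 2-2 by 0.63. Pairs from different animals differed by 0.47 to 0.92. Over all 7030 probe sets that passed on every array the same medians were 0.21, 0.35 and 0.39 to 0.41. A median over 3 probe sets rests on few values, and it was not tested.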

How the data were processed

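RNA from 4 samples of Purkinje cells was amplified in 2 cycles and hybridized to Affymetrix arrays, per the labels' protocols. The deposited intensity values, 1 per probe set and array, came from GCOS, as the submitters' processing notes name it. Its settings were not given in the sources. Detection calls and scanner files were not used. Columns of other samples numbered 0.

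Genes were named from the platform annotation: 34945 probe sets had 1 symbol, 932 several and 9160 none, and 64 controls were left out. List genes without such a probe set were not analysed here. Signals were floored at 0.1, turned to log2 and quantile-normalized. The members and lists were chosen with earlier results of these data known.

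Animals were compared with lmFit and eBayes (limma 3.58.1 in R 4.3.3, with a mean-variance trend). The fit took the 9779 probe sets that passed the bound on 2 or more arrays, left 2 residual degrees of freedom and used Benjamini-Hochberg adjustment at 0.05. Named were all members, the 4 brightest genes of each related list, called genes and defining markers. Genes with an unadjusted p under 0.05, and list genes named for the number of arrays they passed on, were named after their values were seen. A list gene was read on its brightest probe set. Tested on simulated data of 9779 probe sets, this fit called 41% of 100 changes of 2-fold and 86% of 100 changes of 4-fold, and 9.29% of its calls were false. The simulated spread followed the level alone and left out differences in spread between probe sets of like level. These shares therefore need not hold for the real values, in which Nr4a2 (1455034_at) had an SE of 1.03.

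Alternatives were other scalings, bounds, filters, a fit without trend, an offset of 16, the median over probe sets and leaving out each sample.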

Additional observations from a re-analysis of the deposited data

Results flagged for a closer look

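Among the 19 probe sets, 2 had a sample far from the other 3, by the gap to the nearest sample as a share of the whole range of levels. For Fosb (1422134_at) the share was 0.890, with sample 1-1 highest at a deposited signal of 4.9 and the others at 1.0 to 1.2. All of these lay below the background bound. For Nr4a2 (1455034_at) the share was 0.832, with sample 2-2 lowest at 12.6 and the others at 56.3 to 87.6. Chance gives such a share in about 1 in 20 groups.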

How the results depend on the processing

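Leaving out 1 sample in turn gave between 0 and 1 called probe sets of the members. The call was that of Fos without sample 2-1 (1.03). Over all probe sets the count ran from 1 to 921, against 44 with all samples: it was 1 without sample 1-1 or 1-2, 779 without 2-1 and 921 without 2-2. In such a fit the remaining pair alone supplies the spread, and the lone sample is assumed to vary like it. Called genes then numbered 0 to 1 of the other immediate early genes, 0 to 1 of the upstream regulators, 0 to 3 of the partners and modifiers and 0 to 2 of the heat shock genes. On values as deposited 692 probe sets were called, with 3 upstream regulators, 2 partners and modifiers and 1 heat shock gene. On that scale Nr4a3 turned to 0.05. With no filter 5 probe sets were called, with the filter on all 4 arrays 179, and without the trend 0. Pairs from different animals differed more than pairs of 1 animal by 0.24 over the members above the bound, by 0.01 on values as deposited, and by -0.12 to 0.53 when 1 sample was left out. The median differences of the other immediate early genes, upstream regulators, partners and modifiers and heat shock genes (-0.22, -0.07, 0.18 and -0.11) were 0.26, 0.44, 0.68 and 0.35 as deposited. With the median over the probe sets of a gene they were -0.08, 0.01, 0.91 and -0.19. When 1 sample was left out they ran from -0.23 to -0.10, -0.22 to 0.20, 0.03 to 0.39 and -0.18 to -0.05. For the other immediate early genes the median was -0.11 with no filter or with the offset and -0.12 with the lower bound (90th percentile). The causes of these shifts were not tested. Without the filter, the trend or with the offset, trimmed-mean scaling or the filter on all 4 arrays, 0 member probe sets were called, and Fos, Jund, Nr4a2 and Nr4a3 kept their signs wherever they were tested. Array signal near background limits what can be said of the other 6 genes.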

Other observations

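Among the probe sets of the members above the bound on all 4 arrays, Nr4a3 (1438796_at) had the widest range of levels, 1.19, and Jund (1449117_at) the same to 2 decimals. The genes whose levels, centred on their mean, lay nearest to those of Nr4a3 over the 4 samples were Hnrnpul1, Sgf29 and Slc18b1. Their root mean square distances were 0.032, 0.056 and 0.085 on the log2 scale. Of 4662 genes compared, 7 lay within 0.1, so that over 4 samples this likeness is a description only.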
